A study of Mus musculus with 2 samples.

Results

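The genes described here encode proteins that hold epithelial cells together and seal the gaps between them. They are the claudin genes Cldn3, Cldn4, Cldn5, Cldn6 and Cldn7, the adhesion genes Epcam, Cdh1 and Cdh3, the desmosome gene Perp and the protease inhibitor gene Spint2. They were taken by symbol from the gene list of the deposited matrices, which holds 27775 features, and all 10 were found. The matrices hold RNA counts of single cells from mouse lacrimal glands, the glands that make the watery part of tears. The glands came from mice of the outbred CD1 strain, wild type, at postnatal day 4 (P4) and embryonic day 16 (E16). Both stages were untreated as far as the labels say, and neither carries a named allele or transgene. Each stage was 1 library, made from glands that were pooled and dissociated with Liberase TM and DNaseI. The sources used here do not give the number or sex of the animals in a pool. With 1 library per stage no test across animals was possible, so no p-value is given and every interval covers counting error only.

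Claudins are membrane proteins whose outer loops meet between neighbouring cells and form the strands of the tight junction. Cldn3, Cldn4 and Cldn7 are found in many glandular and ductal epithelia, Cldn6 is known mainly from embryonic epithelia, and Cldn5 is the main claudin of blood vessel endothelium. Epcam encodes a surface glycoprotein that binds claudin-7. Cdh1 encodes E-cadherin, the calcium-dependent adhesion protein of the adherens junction, and Cdh3 encodes P-cadherin, its relative in basal and myoepithelial cells. Perp encodes a membrane protein of desmosomes that is switched on by the p63 transcription factor, and Spint2 encodes an inhibitor of the membrane protease matriptase, which can cut EpCAM. E-box motifs in the promoters of epithelial junction genes are known binding sites of the repressors Snail and Zeb.

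Promoters are shown for the neighbouring genes Cldn3 and Cldn4, for Cldn6, whose stage difference ran the other way, and for Cldn5, the member found in another cell class. Each runs from 250 bases before to 50 bases after the RefSeq start in GRCm38.p6, on the gene's own strand, and E-boxes (CAGGTG or CACCTG) are in capitals. Cldn3 lies at chr5:134985964-134986263 on the plus strand, Cldn4 at chr5:134946885-134947184 on the minus strand, Cldn6 at chr17:23679115-23679414 on the plus strand and Cldn5 at chr16:18776597-18776896 on the plus strand.
Cldn3: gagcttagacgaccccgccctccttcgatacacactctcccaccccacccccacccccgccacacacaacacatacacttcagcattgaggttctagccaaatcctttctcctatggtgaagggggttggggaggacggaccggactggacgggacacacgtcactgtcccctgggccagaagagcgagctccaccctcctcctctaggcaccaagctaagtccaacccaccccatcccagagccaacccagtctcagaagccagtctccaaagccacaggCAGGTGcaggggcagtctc
Cldn4: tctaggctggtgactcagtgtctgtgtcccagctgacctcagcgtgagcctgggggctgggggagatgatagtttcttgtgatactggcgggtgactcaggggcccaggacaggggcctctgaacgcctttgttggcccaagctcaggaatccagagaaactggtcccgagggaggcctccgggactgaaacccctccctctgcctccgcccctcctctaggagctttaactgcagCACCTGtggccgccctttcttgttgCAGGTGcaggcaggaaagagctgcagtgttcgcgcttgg
Cldn6: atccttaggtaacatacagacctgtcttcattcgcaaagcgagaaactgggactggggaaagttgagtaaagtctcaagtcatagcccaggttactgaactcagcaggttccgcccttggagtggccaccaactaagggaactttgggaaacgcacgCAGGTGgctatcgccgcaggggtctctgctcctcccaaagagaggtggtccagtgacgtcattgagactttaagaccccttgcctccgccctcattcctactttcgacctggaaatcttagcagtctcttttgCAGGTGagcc
Cldn5: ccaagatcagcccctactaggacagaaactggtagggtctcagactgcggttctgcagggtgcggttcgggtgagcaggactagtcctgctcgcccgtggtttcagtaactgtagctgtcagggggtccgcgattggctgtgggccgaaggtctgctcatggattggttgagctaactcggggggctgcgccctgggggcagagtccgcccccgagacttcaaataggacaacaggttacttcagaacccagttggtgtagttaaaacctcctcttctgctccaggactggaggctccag

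The Cldn3 window held 1 E-box, which began 31 bases after the start. The Cldn4 window held 2, which began 14 bases before and 11 bases after the start. Cldn6 also had 2 E-boxes, and Cldn5, the endothelial member, had none. The promoter table held 8 windows for 7 of the 10 genes, since Cldn7 has 2 starts. An E-box on either strand was found in 6 of the 8 windows, belonging to Cldn3, Cldn4, Cldn6, Cldn7, Epcam and Spint2, and in 20.2% of all 32851 promoter windows of the same length. The GC box GGGCGG, searched on both strands, was in 7 of the 8 windows and in 35.7% of all windows. The palindrome AACCGGTT, a Grainyhead-type motif, was in 0 of the 8 and in 0.15% of all windows. G and C made up 52.0 to 69.3% of the bases of the 8 windows, beside a median of 52.7% over all windows. The shares over all windows were not matched for this. The E-box and GC box letters cannot overlap by more than a single base, and a match says only that the letters are present. In the GENCODE M21 annotation of GRCm38, Cldn3 and Cldn4 are single-exon genes that lie 39279 bases apart on chromosome 5, on opposite strands. Cdh1 and Cdh3 lie 46053 bases apart on chromosome 8, on the same strand.

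Barcodes with at least 200 detected genes were kept, 406 of 687 in P4 and 259 of 437 in E16. They held 1975814 UMIs (unique molecular identifiers, counts of captured RNA molecules) in P4 and 1711606 in E16, with medians of 3767 UMIs per cell in P4 and 5802 in E16. No barcode sequence occurred in both libraries. Clusters were made without the 10 genes and named from other markers. Epithelial-like cells numbered 98 in P4 and 87 in E16, mesenchyme-like cells 178 in P4 and 99 in E16, and endothelial-like cells 22 in P4 and 10 in E16. All 14 epithelial markers had a UMI in the P4 epithelial-like cells, and 13 of 14 in those of E16, where Ltf was at 0. Summed mesenchyme markers, 10 of 12 detected in each library and with Twist1 and Twist2 at 0 in both, came to 1292 CPM (counts per 1000000 UMIs of the class) in P4 and 332 CPM in E16 epithelial-like cells. The part of this RNA in the stage differences below was not tested.

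Apart from Cldn5, the genes marked the epithelium at both stages. Epithelial-like cells held 97.0% of the UMIs of the other 9 genes in P4 (2460 of 2536) and 97.4% in E16 (1762 of 1809). Classes read from single barcodes instead of clusters needed 3 detected markers of a class, which left 57 P4 and 77 E16 barcodes without one. The UMIs of those barcodes counted as outside the epithelium. With the 61 P4 and 34 E16 epithelial cells found this way, the shares were 83.8% in P4 and 49.4% in E16. Cldn5 did the opposite. It had 180 of its 183 UMIs in P4 and all 89 in E16 in endothelial-like cells, and 0 UMIs in the epithelial-like cells of either library. A count of 0 allows a share of up to 3.06% of P4 and 3.45% of E16 epithelial-like cells with a Cldn5 UMI.

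Cells outside the epithelium gave the background against which detection can be read. Epcam was detected in 76.5% of P4 and 85.1% of E16 epithelial-like cells, and in 2.60% of all other P4 cells and 5.23% of all other E16 cells. Cldn3 was detected in 66.3% of the P4 and 33.3% of the E16 epithelium, beside 1.95% of P4 and 2.33% of E16 cells elsewhere. Cdh1 was sparse. The epithelial-like share was 11.2% in P4 and 22.99% in E16, beside 0.974% of P4 and 0.581% of E16 cells elsewhere. For each of the 9 genes the share in epithelial-like cells lay above that background in both libraries. The median epithelial-like cell had 3371 UMIs in P4 and 4897 UMIs in E16, and Spint2 had the highest background, 6.82% of the other P4 cells and 6.98% of the other E16 cells.

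Part of the Spint2 signal outside the epithelium stood in endothelial-like cells. Endothelial-like cells held 14 Spint2 UMIs in 8 of 22 P4 cells and 4 UMIs in 2 of 10 E16 cells. These cells had 0 UMIs of Cldn3, Cldn6, Cldn7, Epcam, Perp, Cdh1 and Cdh3 in both libraries, and Cldn4 had 2 UMIs in 1 P4 cell. Their epithelial markers were likewise near 0, with 2 of 14 markers detected and a sum of 47.5 CPM in P4, and 1 of 14 and 10.4 CPM in E16. Mural cells of E16 held 3 Cdh3 UMIs.

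**Figure D1:**
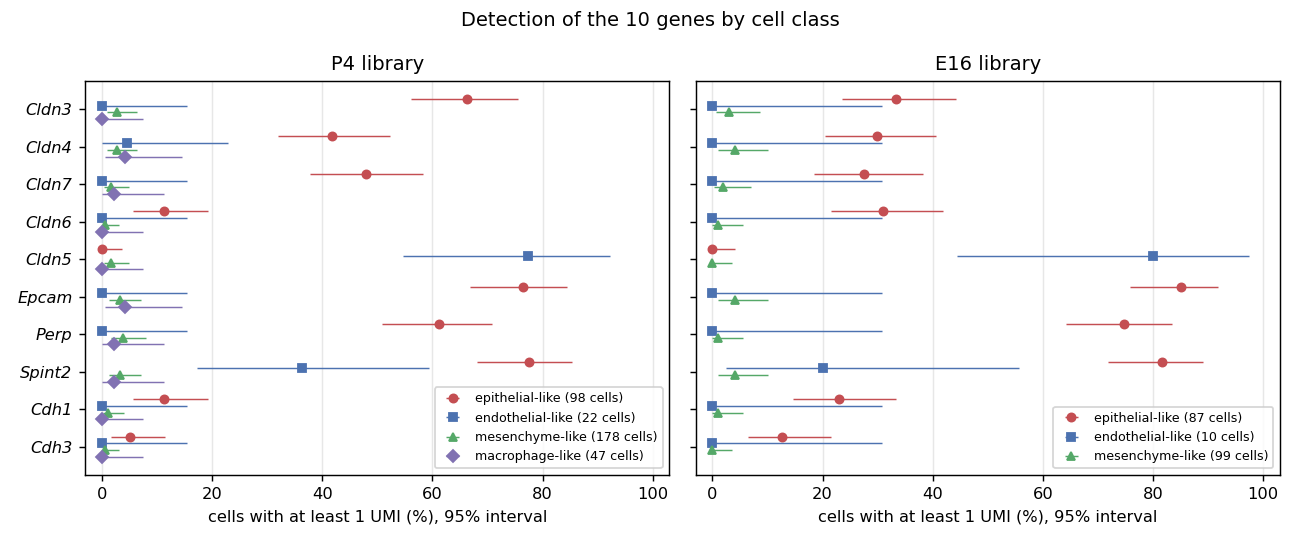
Share of cells with at least 1 UMI of each gene (horizontal axis, percent), in the P4 library (left) and the E16 library (right). Points are cell classes with at least 10 cells among the 4 plotted and bars are exact 95% binomial intervals. Cldn5 stands in endothelial-like cells, at 77.3% in P4 and 80.0% in E16, and the other genes stand in epithelial-like cells.

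Among the claudins of the epithelium, Cldn3 and Cldn7 were higher in P4 and Cldn6 was lower. For Cldn3 and Cldn7 this held for the class as a whole and not within cluster 9, the cluster that held most of their UMIs. The comparison asks how these genes differ between a postnatal gland and a branching fetal gland. It used summed UMIs over the class total, for genes with at least 30 UMIs over both libraries, and a gene was called when it differed by at least 2-fold. Among all 5007 genes tested in epithelial-like cells, 7.09% were called higher and 27.4% lower in P4. Of the 10 genes, 8 were tested in this class, with 2 called higher, 1 called lower and 5 neither. Their median log2 ratio was 0.11, beside -0.53 for all genes tested. Fewer cells of a kind and less RNA per cell within the class cannot be told apart in such sums.

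Cldn3, which encodes a sealing claudin, had 452 UMIs (614 CPM) in P4 and 102 UMIs (163 CPM) in E16 epithelial-like cells, a ratio of 3.77 (95% interval 3.04 to 4.72). Cldn7, whose protein partners EpCAM on lateral membranes, had 246 UMIs (334 CPM) in P4 and 56 UMIs (89.3 CPM) in E16, a ratio of 3.74 (2.79 to 5.09). Both genes were also seen in more cells at P4. After each cell was thinned to 1342 UMIs, Cldn3 was detected in 52.8% of P4 and 19.4% of E16 epithelial-like cells, beside 66.3% of P4 and 33.3% of E16 cells before thinning. Cldn7 was detected in 31.3% of thinned P4 and 13.3% of thinned E16 cells, beside 48.0% of P4 and 27.6% of E16 cells before. Thinning left out 23 P4 and 10 E16 epithelial-like cells that were shallower.

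Cldn4, the neighbour of Cldn3 on chromosome 5, differed less and was not called. It had 243 UMIs (330 CPM) in P4 and 127 UMIs (203 CPM) in E16, a ratio of 1.63 (1.31 to 2.03). A single E16 cell held 50 of the 127 UMIs, and without the top cell of each library the ratio was 2.31. The share of thinned cells with Cldn4 was 27.03% in P4 and 14.96% in E16, beside 41.8% in P4 and 29.9% in E16 unthinned.

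Cldn6, the claudin of embryonic epithelia, went the other way. It had 14 UMIs (19.0 CPM) in 11 of 98 P4 cells and 85 UMIs (136 CPM) in 27 of 87 E16 cells, 7.13-fold lower in P4 (4.03 to 13.60). No P4 cell had more than 2 Cldn6 UMIs, whereas 1 E16 cell of cluster 3 had 43 and the next highest had 5. Without the top cell of each library Cldn6 was 4.12-fold lower in P4. Thinned cells with Cldn6 were 2.76% in P4 and 10.7% in E16, beside 11.2% in P4 and 31.0% in E16 unthinned.

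Cldn5 was compared in endothelial-like cells, where 12.4% of 1173 tested genes were called higher and 11.1% lower in P4. It had 180 UMIs (2136 CPM) in 17 of 22 P4 cells and 89 UMIs (927 CPM) in 8 of 10 E16 cells, a ratio of 2.30 (1.78 to 3.01). The class was split over clusters 8 and 10, with 11 P4 cells in each, and 8 E16 cells in cluster 8 and 2 in cluster 10, and 1 P4 cell held 58 of the 180 UMIs. With so few cells, the composition of the class and the level per cell cannot be told apart.

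Epcam, Perp and Spint2 differed by less than 2-fold. Epcam had 577 UMIs (783 CPM) in P4 and 594 UMIs (947 CPM) in E16, a ratio of 0.83 (0.74 to 0.93). Perp had 264 UMIs (358 CPM) in P4 and 365 UMIs (582 CPM) in E16, a ratio of 0.62 (0.52 to 0.72). One P4 cell held 64 of the Perp UMIs. Spint2 had 639 UMIs (867 CPM) in P4 and 385 UMIs (614 CPM) in E16, a ratio of 1.41 (1.24 to 1.61). None of these 3 reached the fold used for a call.

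The cadherins were too sparse for a firm statement. Cdh1 had 20 UMIs in 11 P4 cells and 32 UMIs in 20 E16 cells, a ratio of 0.53 (0.29 to 0.96) that was not called. Cdh3 had 5 UMIs in 5 P4 cells and 16 UMIs in 11 E16 cells, a ratio of 0.27 (0.08 to 0.76), which was not tested for a call because the gene had fewer than the 30 UMIs needed. After thinning, Cdh1 was detected in 2.41% of P4 and 4.43% of E16 cells, and Cdh3 in 1.20% of P4 and 1.97% of E16 cells.

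The scale of the class matters for these ratios, because secretory transcripts fill much of the RNA of a single cluster of the P4 epithelium. The genes Dcpp1, Dcpp2, Dcpp3 and Smgc encode secreted proteins. They made up 23.7% of the UMIs of P4 epithelial-like cells, and 20 UMIs in E16. Their share was 60.7% in the 27 P4 cells of cluster 16, described below. In the P4 cells of clusters 0, 3 and 9 it was 0.18%, 0.37% and 0.33%. Within cluster 16, the top 10 cells held 99.96% of the Dcpp1 UMIs, and 1 cell held 33.8%. With them left out of the totals, 11.5% of 5003 genes were called higher and 14.7% lower in P4, and the median of all genes moved from -0.53 to -0.14 on the log2 scale. On that scale Cldn3 had a ratio of 4.94, Cldn7 of 4.90, Cldn4 of 2.13 and Spint2 of 1.85, and Cldn6 was 5.44-fold lower in P4. Cldn4 was then called higher, while Epcam at 1.084 turned its direction and had an interval of 0.96 to 1.22. Perp stood at 0.81 (0.69 to 0.95) and Cdh1 at 0.70 (0.38 to 1.26).

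**Figure D2:**
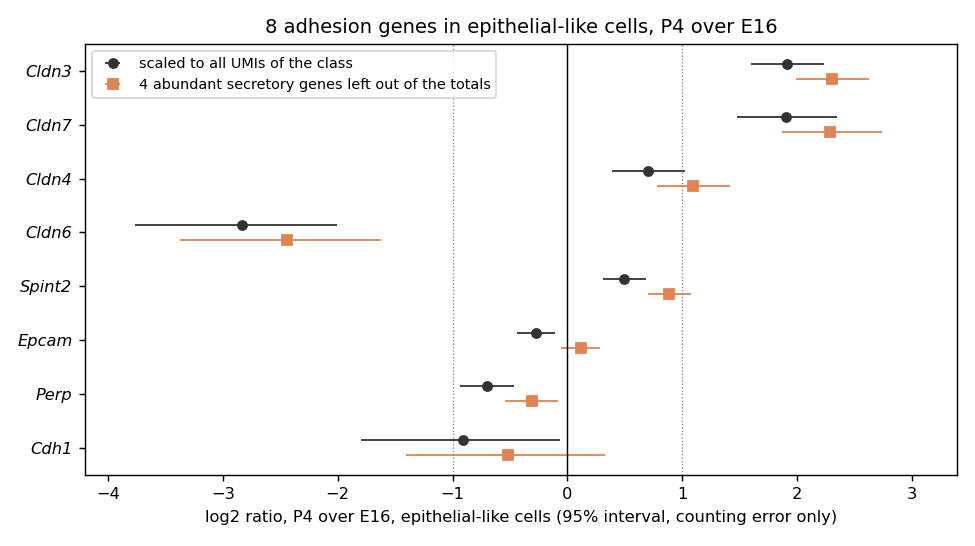
Log2 ratio of P4 over E16 in epithelial-like cells for the 8 genes with at least 30 UMIs, on all UMIs of the class (black circles) and without 4 abundant secretory genes (orange squares). Bars are 95% intervals for counting error and dotted lines mark 2-fold. Cldn3 and Cldn7 lie to the right of the upper line and Cldn6 to the left of the lower line on both scales.

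Single cells show how unevenly these genes were spread. Of all Cldn3 UMIs in epithelial-like cells, the top 10 cells carried 51.5% in P4 and 70.6% in E16. For Cldn4 they held 69.5% in P4 and 85.04% in E16. For Epcam the same measure was lower, with 39.9% of its UMIs in the top 10 cells of P4 and 38.7% of E16. In cells with a UMI of the gene, the median was 4 Cldn3 UMIs in P4 and 2 in E16, and 5 Epcam UMIs at both stages.

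**Figure D3:**
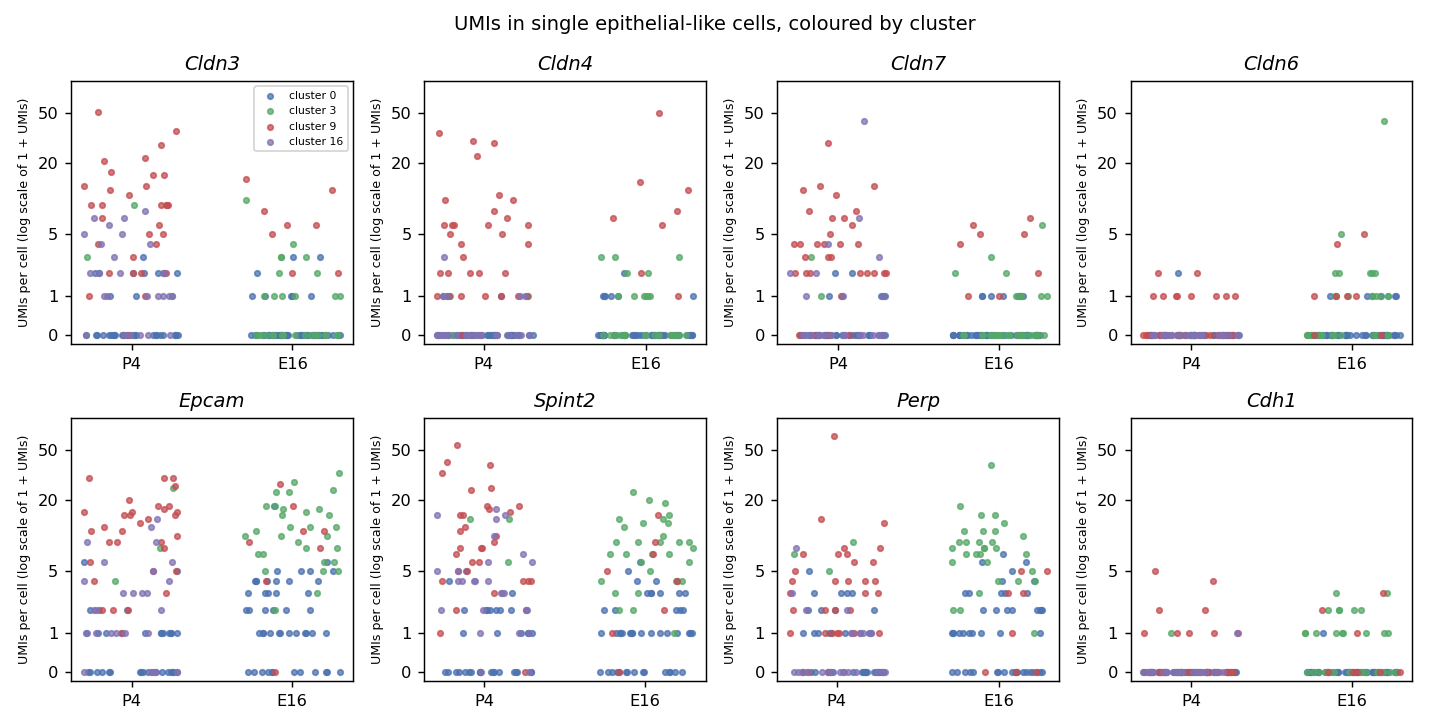
UMIs of 8 genes in each epithelial-like cell (vertical axis, log scale of 1 + UMIs), P4 left and E16 right in each panel, coloured by cluster with sideways jitter for visibility. Cldn3, Cldn4 and Cldn7 are high mainly in cells of cluster 9, and 1 E16 cell of cluster 3 stands apart with 43 Cldn6 UMIs.

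The 4 epithelial-like clusters held different shares of the class at the 2 stages. Cldn3, Cldn4 and Cldn7 had most of their UMIs in cluster 9 at both stages. That cluster was led by Wfdc18 and by Krt18 and Krt8, the last 2 being keratin genes typical of luminal cells. It had 33 of 98 P4 cells (33.7%, 95% interval 24.4 to 43.9) and 8 of 87 E16 cells (9.20%, 4.05 to 17.3). Cluster 3, with Col9a1 and the basal keratin gene Krt14 among its leading genes, had 3 P4 and 31 E16 cells. Cluster 0, led by Mia, Fxyd3 and Krt14, had 35 P4 cells with a median of 1465 UMIs and 48 E16 cells with a median of 2348 UMIs. Cluster 16, led by Dcpp3, Dcpp2 and Dcpp1, had 27 P4 cells and 0 E16 cells.

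Cluster 9 held 78.8% of the Cldn3 UMIs of the P4 epithelium and 54.9% of those of the E16 epithelium. For Cldn4 these shares were 95.5% in P4 and 78.7% in E16, and for Cldn7 68.7% in P4 and 55.4% in E16. Its cells made up 46.6% of the epithelial UMIs of P4 and 6.91% of those of E16. Perp, in comparison, had 71.6% of its P4 UMIs in cluster 9 and 75.3% of its E16 UMIs in cluster 3, whose cells made up 68.3% of all E16 epithelial UMIs.

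Within cluster 9 the stage difference of Cldn3 and Cldn7 was not seen. Cldn3 had 1036 CPM in P4 and 1292 CPM in E16 cells of the cluster, a ratio of 0.80 (0.60 to 1.08). Cldn7 had 492 CPM in P4 and 715 CPM in E16, a ratio of 0.69 (0.47 to 1.04). Cldn4 had 675 CPM in P4 and 2308 CPM in E16, so within this cluster it was 3.42-fold lower in P4 (2.68 to 4.34), the reverse of its direction in the whole class. Leaving out the top cell of each library, Cldn4 was 2.55-fold lower in P4 (1.83 to 3.50) and Cldn7 1.76-fold lower (1.09 to 2.73).

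Cldn6 stayed lower in P4 inside cluster 9, at 34.9 CPM (12 UMIs) in P4 and 300.03 CPM (13 UMIs) in E16, 8.59-fold lower (3.61 to 20.59). Spint2 had a ratio of 1.27 (0.93 to 1.78) and Perp of 1.40 (0.85 to 2.46) within the cluster, and Epcam was 1.67-fold lower in P4 (1.31 to 2.11). In cluster 0, the other cluster with 5 or more cells at both stages, Cldn3 had 17 UMIs in P4 and 13 in E16, a ratio of 2.65 (1.21 to 5.94). Cldn7 there had 8 UMIs in P4 and 7 in E16, with a ratio of 2.32 whose interval, 0.73 to 7.51, includes no difference. The 2 clusters were compared in this way after the class values had been seen.

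**Figure D4:**
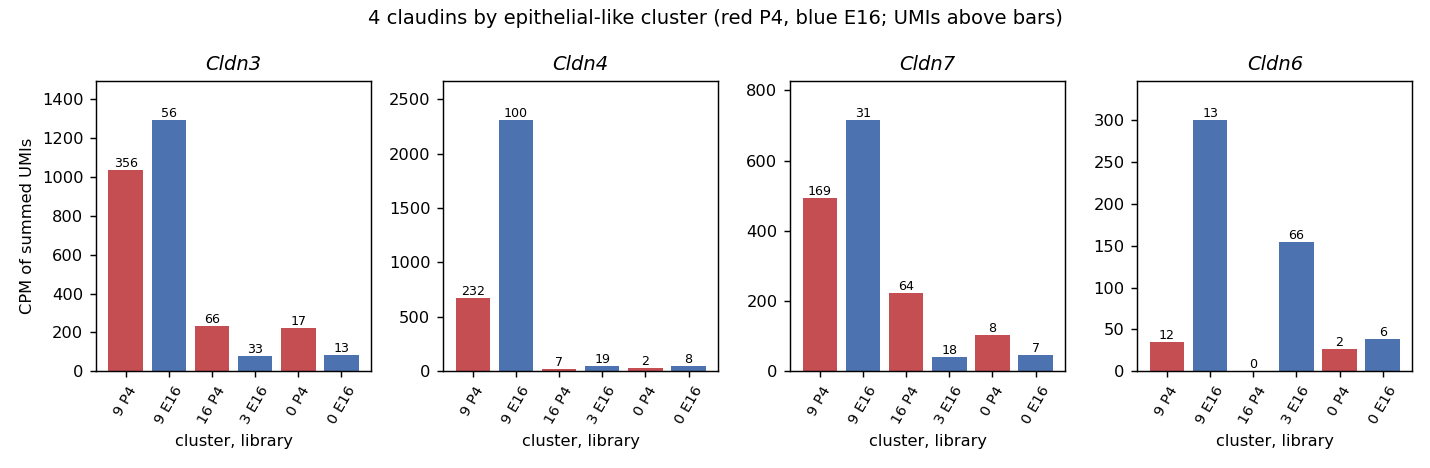
CPM of Cldn3, Cldn4, Cldn7 and Cldn6 in epithelial-like clusters by library (red P4, blue E16), with summed UMIs above each bar; the 3 P4 cells of cluster 3 and the empty E16 side of cluster 16 are not drawn. Cluster 9 is highest for Cldn3, Cldn4 and Cldn7 at both stages on the scale drawn. With the 4 secretory genes left out of the totals, Cldn7 in P4 is 571 CPM in cluster 16 and 494 CPM in cluster 9. Of the 64 Cldn7 UMIs of cluster 16, a single cell held 43. Cldn6 is at or under 34.9 CPM in every P4 bar.

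The epithelium of each library was then clustered on its own. In P4, a luminal and duct-like sub-cluster of 15 cells, led by Sftpd and Krt19, had 1036 CPM of Cldn3, 1209 CPM of Cldn4 and 940 CPM of Cldn7. An acinar-like sub-cluster of 17 P4 cells, led by Dcpp3, Dcpp2 and Prol1, had 145 CPM of Cldn3, 12.0 CPM of Cldn4 (3 UMIs) and 44.2 CPM of Cldn7. The 4 secretory genes made up 69.6% of the UMIs of these acinar-like cells, and with them left out the values were 475 CPM of Cldn3, 39.6 CPM of Cldn4 and 145 CPM of Cldn7. A myoepithelial-like sub-cluster of 15 P4 cells, led by Acta2, had 298 CPM of Cldn3, 22.9 CPM of Cldn4 (1 UMI) and 91.8 CPM of Cldn7. Each of the 3 claudins thus had a lower value in the acinar-like and myoepithelial-like cells than in the duct-like cells on both scales, while the order of acinar-like and myoepithelial-like cells turned with the scale for all 3. For Cldn4 that order rests on 3 UMIs and 1 UMI. Leaving out the top cell for the gene, Cldn3 was 113 CPM in the myoepithelial-like and 130 CPM in the acinar-like cells. Cldn7 was then 28.9 CPM in the myoepithelial-like and 32.6 CPM in the acinar-like cells. With the secretory genes kept in, the order for these 2 genes thus also turned with a single cell. Cldn4 in the duct-like cells was 780 CPM without its top cell.

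Perp differed from the claudins, with 688 CPM in the myoepithelial-like, 384 CPM in the duct-like and 72.3 CPM in the acinar-like cells of P4. Without the secretory genes Perp had 238 CPM in the acinar-like cells, still under its value in the other kinds. Epcam had 1708 CPM in the duct-like, 482 CPM in the myoepithelial-like and 253 CPM in the acinar-like cells, and without the secretory genes the acinar-like value was 832 CPM, above the 483 CPM of the myoepithelial-like cells. Cldn6 had 0 UMIs in the P4 acinar-like and myoepithelial-like cells and 2 UMIs in the duct-like cells. The largest P4 sub-cluster, 22 cells deep in UMIs (median 12870.5) that stayed unnamed, had 968 CPM of Cldn3, 539 CPM of Cldn4 and 366 CPM of Cldn7. Another unnamed P4 sub-cluster held 14 cells, 8 of them from cluster 16. It had 820 CPM of Cldn3, 209 CPM of Cldn4 and 1186 CPM of Cldn7. Leaving out the top cell for the gene, its Cldn7 was 501 CPM, beside 769 CPM in the duct-like cells. The last unnamed P4 sub-cluster, of 15 cells, had 326 CPM of Cldn3, 59.3 CPM of Cldn4 and 119 CPM of Cldn7.

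In E16, the only sub-cluster that could be named was luminal and duct-like, with 15 cells led by Wfdc18 and, further down, Krt19 and Krt18. It had 512 CPM of Cldn3, 873 CPM of Cldn4 and 294 CPM of Cldn7. At resolution 0.5, which gave 2 E16 sub-clusters, the highest E16 values were 183 CPM of Cldn3, 239 CPM of Cldn4 and 100.4 CPM of Cldn7, and the highest P4 values were 593 CPM of Cldn4 and 909 CPM of Cldn7. The largest E16 sub-cluster, 31 unnamed cells that came mostly from cluster 3, had 79.2 CPM of Cldn3, 39.6 CPM of both Cldn4 and Cldn7, and 164 CPM of Cldn6. The E16 duct-like cells had 143 CPM of Cldn6 in 9 of 15 cells, so Cldn6 was detected in both kinds of cell at E16. One cell held 43 of the 62 Cldn6 UMIs of the unnamed cells, and without it they had 51.04 CPM. Without the top cell for the gene, the duct-like cells of E16 had 111 CPM of Cldn6 and 498 CPM of Cldn4.

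Co-detection was counted for the 36 pairs of the 9 epithelial genes. Epcam and Spint2 were found together most often, in 64 of 98 P4 cells and 63 of 87 E16 cells. Of the 41 P4 cells with Cldn4, 39 also had Cldn3 and all 41 had Epcam. Of the 26 E16 cells with Cldn4, 17 had Cldn3 and 23 had Epcam. Among all epithelial-like cells, Cldn3 was detected in 65 of 98 in P4 and 29 of 87 in E16. Cldn4 without Cldn3 was seen in 2 P4 cells and 9 E16 cells, a difference that was not tested.

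Both genes were co-detected in 39.8% of P4 and 19.5% of E16 epithelial-like cells, and in 19.5% of P4 and 9.43% of E16 cells after thinning. P4 cells with both genes had a median of 9361 UMIs and E16 cells 6511 UMIs, above the class medians. Cells with both genes of a pair were likewise deeper for every other pair, except Cldn4 with Cldn7 in E16. That pair had the class median of 4897 UMIs. Detection of most pairs thus moves with depth. Cldn6 was never seen without Epcam, in 11 of 11 P4 and 27 of 27 E16 cells with a Cldn6 UMI. All 11 P4 Cldn6 cells also had Cldn7, whereas 13 of 27 E16 Cldn6 cells did. Among all epithelial-like cells, Cldn7 was detected in 47 of 98 in P4 and 24 of 87 in E16. All 20 E16 cells with Cdh1 had Epcam, Perp and Spint2. Of all 87 E16 epithelial-like cells, 74 had Epcam, 65 had Perp and 71 had Spint2, and 75 of 98 P4 cells had Epcam. Cells with Cldn6 had medians of 16579 UMIs in P4 and 10788 in E16, and E16 cells with Cdh1 11842.

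The median epithelial-like cell had a UMI of 4 of the 10 genes at both stages. At least 3 genes were detected in 68 of 98 P4 cells and 63 of 87 E16 cells, with a maximum of 9 in P4 and 8 in E16. The 6 P4 and 3 E16 cells with none of them all came from the shallow cluster 0 and had medians of 1401.5 UMIs in P4 and 1831 in E16. Outside the epithelium at least 3 of the 9 epithelial genes were found in 1 of 308 P4 cells, a mesenchyme-like cell, and in 1 of 172 E16 cells, an erythroid cell.

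**Figure D5:**
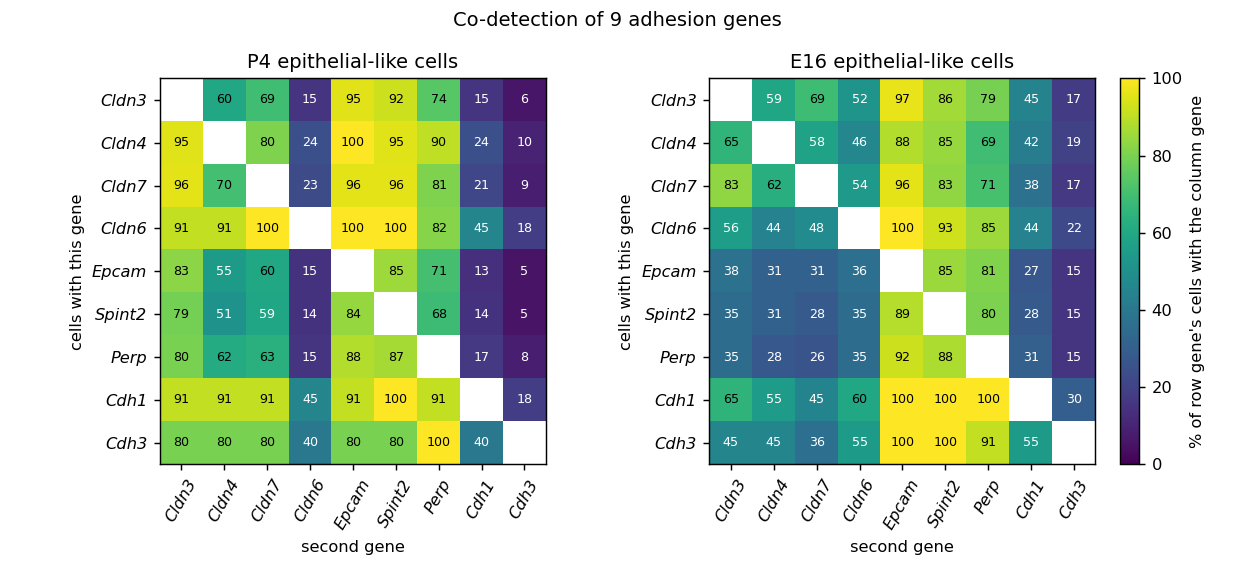
Percent of the cells with the row's gene that also had the column's gene, in P4 (left) and E16 (right) epithelial-like cells, at full depth. Rows of sparse genes rest on few cells, 5 in P4 and 11 in E16 for Cdh3. The P4 block of Cldn3, Cldn4 and Cldn7 runs from 60 to 96%.

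The other genes of the junctions were taken from 6 lists. Their counts stand beside 7.09% called higher and 27.4% called lower in P4 among all 5007 genes tested. Among the 3 tested of 20 other claudin genes, 2 were called higher and 0 lower in P4. Cldn10, which encodes a claudin that forms ion-selective pores, had 553 UMIs in P4 and 75 UMIs in E16 epithelial-like cells, a ratio of 6.28 (4.92 to 8.10). Mesenchyme-like cells also held Cldn10, with 30 UMIs in 23 of 178 P4 cells and 4 UMIs in 4 of 99 E16 cells. The source of those UMIs was not tested. Cldn8 had 40 UMIs in P4 and 16 in E16 epithelial-like cells, a ratio of 2.13 (1.17 to 4.07). Cldn12 stayed under the 30 UMIs needed, with 2 UMIs in P4 and 27 in E16, of which a single cell held 85.2%. Cldnd1, named as a claudin-domain gene, was widespread, with 224 CPM in P4 and 239 CPM in E16 mesenchyme-like cells. Of the 33 claudin family genes in the files, 17 had a UMI in P4 and 17 in E16, and 16 had none in either.

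Of the tight junction partners, 9 were tested, with 2 called higher and 1 lower in P4. Crb3, which encodes a polarity protein of the apical membrane, had a ratio of 2.36 (1.55 to 3.68) on 86 UMIs in P4 and 31 in E16, and Ocln, the gene of occludin, had 2.21 (1.03 to 5.14) on 26 UMIs in P4 and 10 in E16. Pard3, which encodes a polarity scaffold, was 2.87-fold lower in P4 (1.27 to 7.09) on 9 UMIs in P4 and 22 in E16. The list's median log2 ratio was 0.27, beside -0.53 for all genes tested.

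Of 6 cadherin and catenin genes tested, 0 were called higher and 1 lower. Vcl, the gene of vinculin, had 9 UMIs in P4 and 23 in E16, a ratio of 0.33 (0.14 to 0.75), and the catenin genes Ctnnb1 and Ctnna1, which link cadherins to actin, had ratios of 0.74 and 0.64. Of 4 desmosome genes tested, 0 were called higher and 2 lower. Dsp, the gene of desmoplakin, was 4.11-fold lower in P4 (2.33 to 7.68) on 16 UMIs in P4 and 56 in E16, and the plakophilin gene Pkp3 was 2.58-fold lower (1.37 to 5.12). With the 4 secretory genes left out of the totals, Dsp was 3.14-fold and Pkp3 1.97-fold lower, so that Pkp3 was no longer called. These 2 lists had median log2 ratios of -0.53 and -0.60, beside -0.53 for all genes tested. Of all genes tested, 27.4% were called lower in P4, and 14.7% with the 4 secretory genes left out.

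Among genes of membrane proteases, their inhibitors and partners, Spint1, the relative of Spint2, had a ratio of 1.87 (1.24 to 2.85), with 59.5% of its P4 UMIs in 1 cell. St14, the gene of matriptase, which Spint2 protein inhibits, had 39 UMIs in P4 and 41 in E16, a ratio of 0.81 (0.51 to 1.29). Of 9 transcription factor and splicing genes that regulate epithelial junctions, 0 were called higher and 1 lower. That gene was Trp63, which encodes p63, at 8 UMIs in P4 and 27 in E16, 3.97-fold lower (1.75 to 10.10). The list's median was -0.20, beside -0.53 for all genes tested, and 0.19, beside -0.14, without the 4 secretory genes.

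Genes whose level followed each gene most closely were found over 7 class and library groups with at least 20 cells, by Pearson correlation of log2(CPM + 20) among 4722 genes. Because most groups have near 0 CPM of these genes, the correlations largely follow the split between epithelium and other cells and share the libraries' depth. Cldn4 was most like Wfdc18 (r = 0.99) and its list also held Ehf, and Cldn3 was most like Foxq1 (r = 0.99), Spint1 and Syne4. Cldn7 was followed by Crb3, Foxq1 and Gsta3, and Cldn6 by Gpx2, Col9a1 and Krt15. Epcam was most like Krt23 and Perp, and Perp most like Epcam, Sfn and Krt17. Cdh1 was followed by Mia, Meis2 and Espn, and Spint2 by Tmem238 (r = 0.97), Ptprf and Ezr. Cldn5 was followed by the endothelial genes Gja4, Gpihbp1 and Pecam1. Only 1 of the 7 groups was endothelial-like, that of P4, so the Cldn5 correlations rest on that group.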

How the data were processed

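Single-cell suspensions of pooled lacrimal glands were barcoded in droplets, per the labels. The authors deposited raw UMI counts, whole numbers for each gene and barcode. The submitters' processing notes name Cell Ranger and the mm10 build, and its version, settings and barcode filter are not stated there. Counting may have split or dropped reads shared by near-identical genes, such as the Dcpp genes.

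Barcodes with at least 200 detected genes were kept. Mitochondrial features had 0 UMIs, so dying cells could not be judged. Scrublet called 1 doublet in P4 and 2 in E16, and both kinds were kept. Leiden clusters at resolution 1 (scanpy 1.11.5) used 2000 variable genes, 20 principal components and 15 neighbours, with the 10 genes left out. A cluster took a class name if at least 3 of its markers were each detected in 20% of its cells and no other class led among its 10 leading genes. Cluster 16 had 3 epithelial markers detected and none among its leading genes. Sub-clusters needed a marker of their own name among the leading genes, a rule made after values had been seen.

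UMIs were summed per class and library and divided by the class total. Ratios have exact conditional 95% intervals and shares Clopper-Pearson intervals. A count of 0 was read as up to 3 counts. Detection after thinning is the exact expectation at 1342 UMIs per cell. The ratio was tested on simulated class sums that held counting error alone. Those sums had no spread between cells, so they cannot judge the intervals where a few cells hold most UMIs. The genes, marker lists and junction lists were chosen with earlier results of these data known. Of each junction list up to 3 tested genes in each direction, ranked by the interval bound nearest 1, could be named, with any claudin of at least 30 UMIs in a class; Cldn12 and St14 were named beyond that rule after values had been seen. One result of the protease and inhibitor list is not reported here. Alternatives were other filters, scales and clusterings and left-out cells or clusters. Promoters came from RefSeq (GRCm38.p6) and gene positions from GENCODE M21 (GRCm38, the assembly of mm10).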

Additional observations from a re-analysis of the deposited data

Results flagged for a closer look

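Barcodes under 200 detected genes entered no comparison, and some of these genes had UMIs there above the 3 counts that a count of 0 allows. In P4, Cldn3 had 7 UMIs, Epcam had 7 UMIs and Spint2 had 9 UMIs among 281 such barcodes with 736800 UMIs in all. In E16 none of the 10 genes had more than 3 UMIs among 178 barcodes with 523094 UMIs. The source of these UMIs was not tested. Haemoglobin genes made up a median of 95.7% of the UMIs of these barcodes in P4 and 95.9% in E16.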

How the results depend on the processing

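Cldn6 was lower in P4 under all 15 alternatives that gave a value, by 4.12 to 12.2-fold. Cldn5 was higher in endothelial-like cells under all 13, with ratios of 1.88 to 2.92. Cldn3 was higher in P4 under 15 of 16 and Cldn7 under 15 of 16. The exception for both was cluster 9 alone, where the log2 ratios were -0.32 for Cldn3 and -0.54 for Cldn7. Cldn4 had log2 ratios between -1.77 and 1.37 and was lower in P4 in cluster 9 alone, in cluster 0 alone and with classes from single barcodes. The count of genes at least 2-fold lower in P4 was 2 with cells weighted equally, with classes from single barcodes, and without the top cell or the top 2 cells of each gene, and 0 in cluster 0 alone. The count at least 2-fold higher was 1 with classes from single barcodes and in cluster 0 alone, and 0 in cluster 9 alone. The epithelial-like share of the UMIs of the 9 genes was 94.5% in P4 and 96.3% in E16 with cells weighted equally, 94.0% in P4 and 96.4% in E16 with thinned cells, and 91.1% in P4 with each library clustered alone. Classes from single barcodes kept 61 P4 and 34 E16 epithelial cells and left 57 P4 and 77 E16 barcodes without a class. They gave 83.8% in P4 and 49.4% in E16, and Cldn3 then had a ratio of 1.93, under the fold for a call. The endothelial-like share of Cldn5 UMIs was 96.3% with 1000 variable genes and with each library alone. Cldn3 with Cldn4 was found in 19.5% of P4 and 9.43% of E16 cells after thinning, and in 24.5% of P4 and 11.5% of E16 cells at 2 or more UMIs. Of the list genes, 9 were called higher without the 4 secretory genes, 1 with classes from single barcodes, and 2 higher and 0 lower at 100 or more UMIs, where fewer genes were tested. Sub-clusters numbered 4 to 7 in P4 and 2 to 8 in E16 at other resolutions, and the highest E16 sub-cluster value of Cldn6 was 483 CPM at resolution 1.5. The causes of these shifts were not tested. No paired analysis was possible because each stage is 1 library.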
